A study of Mus musculus with 9 samples.

Results

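RNA of Zbp1 and the core necroptosis genes is described here across β-actin knockout mouse embryonic fibroblasts that had been transfected with viral mimics. The values are RNA counts and give no measure of protein, phosphorylation or cell death. The set holds 7 genes of the 46603 Ensembl identifiers in the count tables: Zbp1, Ripk1, Ripk3, Mlkl, Casp8, Cflar and Fadd. They were chosen by symbol and matched on the Ensembl identifier to the GENCODE M21 annotation of GRCm38, and each matched 1 identifier. The 3 groups were cells transfected with poly(I:C) at 10 µg/ml, which stands in for viral double-stranded RNA, cells transfected with poly(dA:dT) at 10 µg/ml, which stands in for double-stranded DNA, and mock cells that received only the lipid reagent. Exposure lasted 6 h in each group, a Lipofectamine reagent carried the nucleic acid, and each group held 3 libraries. All groups, mock included, were β-actin −/− (Actb knockout) fibroblasts of the BALB/c strain from embryos of day 10.5, obtained from 1 outside laboratory. Wild-type cells were not analysed here, so no value below shows an effect of the knockout.

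Necroptosis is a lytic form of cell death that proceeds when caspase activity fails to stop it. The kinases RIPK1 and RIPK3, the sensor ZBP1 and the Toll-like receptor adaptor TRIF share a short RHIM motif through which they assemble, and RIPK3 then phosphorylates MLKL, which breaks the plasma membrane. The adaptor FADD, the protease caspase-8 and its inactive relative cFLIP, encoded by Cflar, form the complex that cleaves RIPK1 and RIPK3 and so holds the pathway back. Zbp1 is a known interferon-induced gene, and double-stranded RNA reaches the same machinery through TLR3 and TRIF.

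Assigned counts per library were 16082772 to 22382837 after poly(I:C), 20738109 to 23185293 after poly(dA:dT), and 19826550 to 29219797 in mock. Actb, the targeted gene, had 565 to 736 counts after poly(I:C), 657 to 716 after poly(dA:dT) and 658 to 924 in mock. What the knockout removed from Actb is not stated in the labels, so these reads cannot be assigned to an intact transcript. All 8 fibroblast markers were detected, with a summed level of 3999 to 4268 CPM (counts per 1000000 of the scaled library total) after poly(I:C), 4932 to 5052 after poly(dA:dT) and 5661 to 5856 in mock. Of these 8 markers, 8 were called lower after poly(I:C), where 36.3% of all genes tested were, and after poly(dA:dT) 6 were lower and 1 higher, against 26.2% and 26.6% of all genes. The leukocyte genes Ptprc and Tyrobp had 0 counts in all 9 libraries, and the 8 macrophage markers together reached 4.02 to 6.72 CPM after poly(I:C), 2.25 to 3.12 after poly(dA:dT) and 3.32 to 4.19 in mock. Within that sum Fcgr1 had 180 counts after poly(I:C), 15 after poly(dA:dT) and 5 in mock, while Cd68 had 112, 143 and 223 in the same order. The 5 lymphoid markers together stayed at or below 0.131 CPM in every library, and Cd3e, Nkg7 and Ncr1 had 0 counts. The 6 endothelial markers summed to 4.66 to 4.83 CPM after poly(I:C), 2.74 to 3.25 after poly(dA:dT) and 0.789 to 1.11 in mock, with Tie1 and Emcn at 0 throughout. Cdh5 had 61 counts after poly(I:C), 14 after poly(dA:dT) and 0 in mock. The 6 epithelial markers summed to 7.74 to 8.32, 8.22 to 9.39 and 8.81 to 9.88 CPM in the same order of groups. The part of these markers in the results was not tested. In bulk RNA, fewer cells of a type and less RNA per cell cannot be told apart.

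Promoter sequences are shown for the members in which a searched motif was found, and for Mlkl, the execution gene that changed. They come from RefSeq on GRCm38.p6, span 250 bases before to 50 after an annotated start, run 5′ to 3′ on the gene's strand, and were matched for 6 of the 7 members (7 windows, since Ripk1 has a pair of starts). Zbp1 had no matched window, so its promoter was not searched. Capitals mark matches, on either strand, to the interferon-stimulated response element core (GAAA, any 2 bases, GAAA), GAAANGAAA (the same half-sites with 1 base between them, added after the Casp8 window had been read) or an NF-kB site (GGGA, any 2 bases, TTCC).
Casp8, chr1:58802252-58802551, plus strand: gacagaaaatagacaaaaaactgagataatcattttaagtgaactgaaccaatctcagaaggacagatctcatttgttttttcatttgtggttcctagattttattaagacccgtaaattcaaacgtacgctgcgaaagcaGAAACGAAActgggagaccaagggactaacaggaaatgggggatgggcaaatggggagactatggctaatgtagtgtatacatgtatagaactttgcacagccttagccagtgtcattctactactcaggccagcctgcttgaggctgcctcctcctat
Cflar, chr1:58711241-58711540, plus strand: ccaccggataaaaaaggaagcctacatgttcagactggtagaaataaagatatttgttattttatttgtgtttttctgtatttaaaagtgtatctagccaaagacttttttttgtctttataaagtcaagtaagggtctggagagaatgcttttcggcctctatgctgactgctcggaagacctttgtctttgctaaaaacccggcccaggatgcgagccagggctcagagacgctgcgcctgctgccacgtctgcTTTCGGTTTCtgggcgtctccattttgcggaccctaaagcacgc
Ripk1, chr13:34002624-34002923, plus strand: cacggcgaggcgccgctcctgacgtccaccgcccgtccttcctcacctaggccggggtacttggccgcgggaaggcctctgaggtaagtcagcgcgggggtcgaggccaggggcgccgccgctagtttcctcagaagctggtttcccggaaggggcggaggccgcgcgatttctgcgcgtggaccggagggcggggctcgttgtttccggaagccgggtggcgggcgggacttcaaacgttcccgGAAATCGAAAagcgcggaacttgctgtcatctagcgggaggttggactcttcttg
Mlkl, chr8:111338156-111338455, minus strand: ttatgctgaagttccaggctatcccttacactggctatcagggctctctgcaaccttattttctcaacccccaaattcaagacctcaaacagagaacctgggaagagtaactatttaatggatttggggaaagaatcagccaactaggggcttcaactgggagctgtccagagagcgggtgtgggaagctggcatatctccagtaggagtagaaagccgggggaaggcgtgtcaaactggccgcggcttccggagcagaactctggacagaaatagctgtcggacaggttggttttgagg

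The Casp8 window held 1 match to GAAANGAAA, GAAACGAAA at bases -109 to -101, counted from the start as base 1 with -1 just before it. The Cflar window held 1 match to the response element core on the opposite strand, at bases 7 to 16. The second Ripk1 window held 1 match to the response element core, GAAATCGAAA at bases -5 to 5. Among 32851 such windows of all genes, 3.44% held the response element core, 3.17% GAAANGAAA and 1.47% the NF-kB site. None of these letters occurred in the Mlkl, Fadd or Ripk3 window or in the first Ripk1 window, which says nothing of sites elsewhere. On the genome, Cflar (chromosome 1, 58711508 to 58758884) and Casp8 (58795374 to 58847503) lie on the same strand 36489 bases apart, with the pseudogene Gm3841 between them. The Casp8 window shown lies inside this Casp8 span, and the bases before the span were not searched.

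After poly(I:C), 6 of the 7 genes were higher than in mock and 1, Ripk3, was lower. Zbp1 changed most, Fadd rose 2.09-fold and Mlkl 1.63-fold, and the others moved by at most 1.36-fold in either direction. Of all 14176 genes tested, 76.1% were called in this comparison, 39.8% higher and 36.3% lower (edgeR quasi-likelihood test, Benjamini-Hochberg adjusted p below 0.05), so calls were common among genes of any kind. The median log2 fold change was 0.24 over the 7 genes and 0.04 over all genes tested. At least 2-fold rises were seen in Zbp1 and Fadd, against 13.1% of all genes. CPM values did not overlap between the groups for 7 of 7 genes, and for 76.8% of all genes. Zbp1 is in these counts and those below, although it passed the filter on low counts only through the poly(I:C) libraries.

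Poly(dA:dT) moved the set less evenly. Zbp1, Fadd and Mlkl were higher than in mock, Cflar and Ripk3 were lower, and Ripk1 and Casp8 were not called. Of all genes tested, 52.8% were called, with 26.6% higher and 26.2% lower. This split was 3769 against 3721 genes, or 5004 against 2389 when total counts set the scaling. The median log2 fold change was 0.06 over the 7 genes and 0.01 over all genes. Only Zbp1 among the 7 rose at least 2-fold, against 3.84% of all genes, and CPM values did not overlap for 6 of 7 genes, against 57.3% of all genes. Between the mimics, 6 genes were higher after poly(I:C) than after poly(dA:dT) and Ripk3 was lower, against 31.3% and 32.1% of all genes in those directions and 63.4% in either. Only Zbp1 differed at least 2-fold, against 7.62% of all genes, and values did not overlap for 7 of 7 genes, against 66.1% of all genes. The comparisons share libraries and are not independent of one another.

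**Figure D1:**
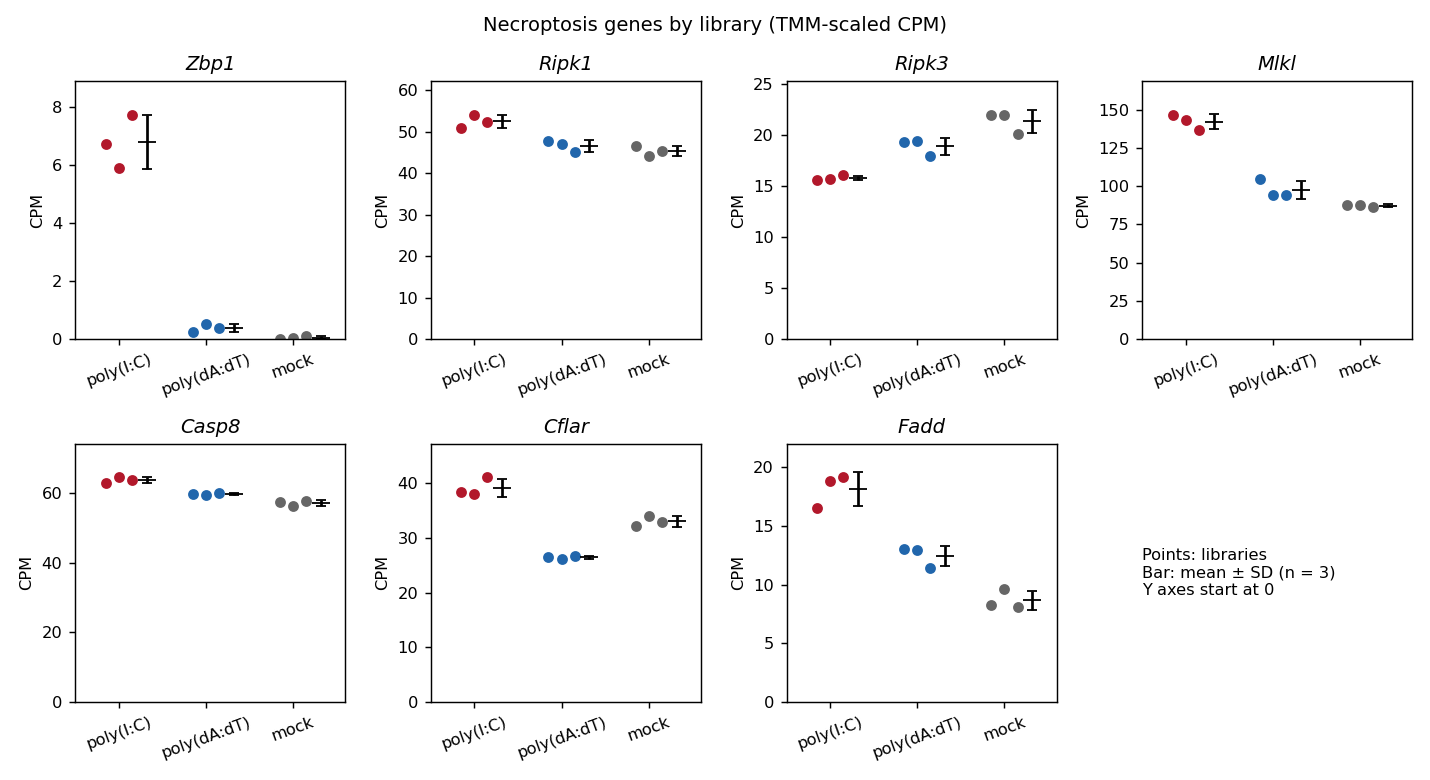
TMM-scaled CPM of each gene (y axes from 0) in the 3 libraries of each group, with mean ± SD (n = 3). Zbp1 stood at 5.9 to 7.74 CPM after poly(I:C) and at or below 0.513 CPM in the other 6 libraries, Ripk3 was lowest after poly(I:C), and Cflar was lowest after poly(dA:dT).

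Zbp1 (ENSMUSG00000027514, chromosome 2, 173206612 to 173218923, minus strand), the sensor of Z-form nucleic acids that recruits RIPK3, had 139, 137 and 129 counts in the 3 poly(I:C) libraries, 5, 12 and 9 after poly(dA:dT), and 0, 1 and 2 in mock. The 3 poly(I:C) libraries stood far above the other 6, and the poly(dA:dT) and mock libraries did not overlap either. In CPM this was 6.79 ± 0.919 after poly(I:C), 0.381 ± 0.137 after poly(dA:dT) and 0.0489 ± 0.053 in mock (SD, n = 3). A count of 0 at the depth of that mock library allows up to 0.107 CPM. With 3 counts in all mock libraries together, the fold is a ratio with a wide counting interval: 158 after poly(I:C) (95% exact binomial interval 53.8 to 772) and 9.15 after poly(dA:dT) (2.81 to 47.2). Both were called higher than mock, with adjusted p = 1.93e-43 after poly(I:C) and 8.77e-05 after poly(dA:dT) in the edgeR test. Zbp1 passed the filter on low counts only through the poly(I:C) group, and in a fit of only poly(dA:dT) and mock it was filtered out. Its calls therefore carry no weight of their own. The mock libraries weigh on the fitted log2 fold changes, which were 7.14 after poly(I:C) and 3.03 after poly(dA:dT). Without mock replicate 1 they were 6.48 and 2.38, and without mock replicate 3 they were 8.08 and 3.98.

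Poly(I:C) gave 17.2-fold more Zbp1 than poly(dA:dT) (log2 fold change 4.11 ± 0.24 SE, edgeR adjusted p = 2.31e-35). Zbp1 entered this test, too, only through the poly(I:C) group, so this call carries no weight of its own. In the same comparison Ifnb1, the interferon β gene, was 18.3-fold higher at 88.2 ± 5.6 CPM after poly(I:C) against 4.87 ± 0.789 CPM after poly(dA:dT), and Irf7, an interferon-induced transcription factor, was 7.46-fold higher. The Zbp1 difference had a 95% interval of 12.3 to 24, which overlapped that of Ifnb1, 16.5 to 20.2, but not that of Irf7, 6.88 to 8.09. These intervals are set side by side as a description, and the differences between the genes were not tested. By log2 fold change Zbp1 ranked 71 of 14176 genes after poly(I:C) and 97 after poly(dA:dT), each against mock. Both ranks rest on its 3 mock counts.

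The RNAs of the paired kinases RIPK1 and RIPK3 moved in opposite directions after poly(I:C). Ripk1 (ENSMUSG00000021408, chromosome 13, 34002363 to 34037147, plus strand) had 51, 54.1 and 52.4 CPM after poly(I:C), 47.7, 47.1 and 45.1 after poly(dA:dT), and 46.5, 44.3 and 45.3 in mock. The poly(I:C) libraries stood above the other 6, while those of poly(dA:dT) and mock overlapped. It rose 1.16-fold after poly(I:C) against mock (log2 fold change 0.21 ± 0.05 SE, edgeR adjusted p = 1.69e-05). After poly(dA:dT) the fold was 1.03 with a 95% interval of 0.964 to 1.09 and was not called (adjusted p = 0.508), although total counts as the scaling gave a log2 fold change of 0.11 with adjusted p = 0.0317. Of the exon bases of Ripk1, 9.01% are shared with the antisense gene Serpinb6a and the pseudogene Gm17084, and the sources used here do not say whether strand was used in counting. Serpinb6a stood at 142 ± 7.35 CPM after poly(I:C), 212 ± 2.27 after poly(dA:dT) and 275 ± 6.65 in mock, the reverse of the order of the Ripk1 means, and its part in the Ripk1 counts was not tested.

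Ripk3 (ENSMUSG00000022221, chromosome 14, 55784995 to 55788865, minus strand), the kinase that ZBP1 and RIPK1 engage, had 15.6, 15.6 and 16 CPM after poly(I:C), 19.3, 19.4 and 17.9 after poly(dA:dT), and 22, 22 and 20.1 in mock. The 3 groups did not overlap, with poly(I:C) lowest and poly(dA:dT) below mock. After poly(I:C) it fell to 0.736 of the mock level (log2 fold change -0.44 ± 0.07 SE, edgeR adjusted p = 2.86e-08), and 16.2% of all genes had a lower log2 fold change. After poly(dA:dT) the log2 fold change was -0.18 ± 0.07 (adjusted p = 0.0212). That call was lost with total counts as the scaling (-0.11, adjusted p = 0.193), without mock replicate 1 (-0.16, adjusted p = 0.0873) or 2 (-0.16, adjusted p = 0.079), and without poly(dA:dT) replicate 3 (-0.15, adjusted p = 0.117). Poly(I:C) gave less Ripk3 than poly(dA:dT) in the direct comparison (-0.26 ± 0.08, adjusted p = 0.00154).

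Mlkl (ENSMUSG00000012519, chromosome 8, 111311797 to 111338177, minus strand), which encodes the pseudokinase that executes necroptosis, had 147, 143 and 137 CPM after poly(I:C), 105, 94.5 and 94.1 after poly(dA:dT), and 88, 87.7 and 86.4 in mock. None of the 3 groups overlapped another, and poly(dA:dT) replicate 1 was the highest of its group. It rose 1.63-fold after poly(I:C) (log2 fold change 0.71 ± 0.03 SE, edgeR adjusted p = 1.57e-45) and 1.12-fold after poly(dA:dT) (0.16 ± 0.03, adjusted p = 3.35e-05). Without poly(dA:dT) replicate 1 the second value was 0.11 (adjusted p = 0.0132). The mimics differed by 1.46-fold, with a 95% interval of 1.4 to 1.53.

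**Figure D2:**
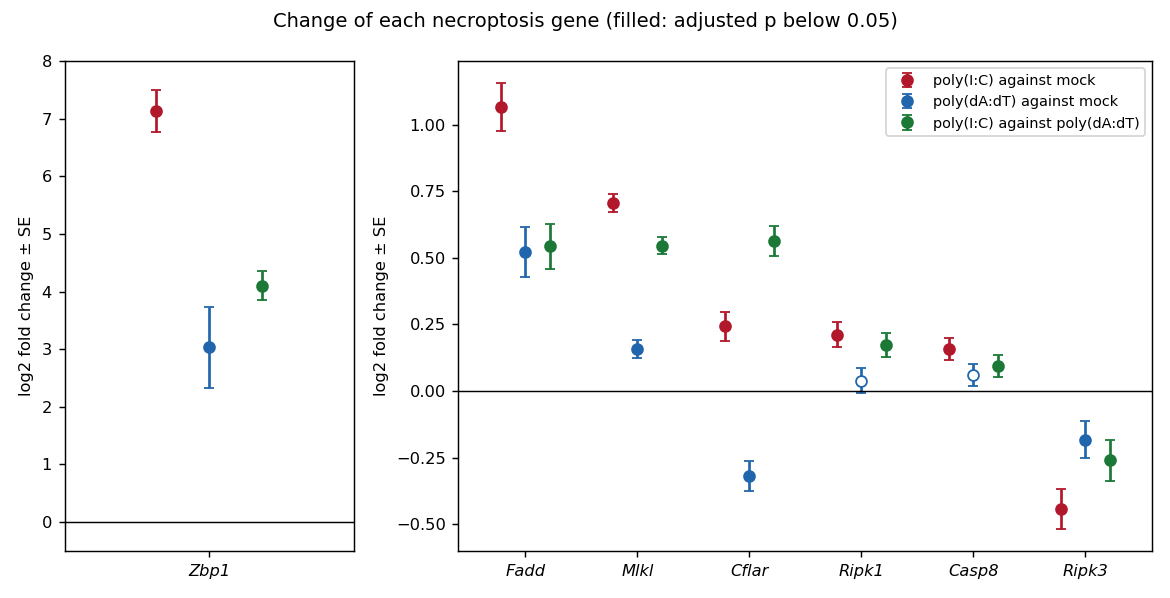
Log2 fold change ± SE (y axes) of each gene in the 3 comparisons, with Zbp1 on a scale of its own, filled where the edgeR adjusted p was below 0.05. Cflar is the gene with opposite signs for the mimics, 0.24 after poly(I:C) and -0.32 after poly(dA:dT), and Ripk3 is below 0 in all 3 comparisons.

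The genes of the complex that restrains necroptosis differed from one another. Fadd (ENSMUSG00000031077, chromosome 7, 144577318 to 144582463, minus strand), the adaptor that brings caspase-8 to RIPK1, had 16.5, 18.8 and 19.1 CPM after poly(I:C), 13, 12.9 and 11.4 after poly(dA:dT), and 8.23, 9.59 and 8.11 in mock. The groups stood apart without overlap, in the order poly(I:C), poly(dA:dT), mock. It rose 2.09-fold after poly(I:C) (log2 fold change 1.07 ± 0.09 SE, edgeR adjusted p = 4.93e-23) and 1.44-fold after poly(dA:dT) (0.52 ± 0.09, adjusted p = 4.72e-07), and the mimics differed by 1.46-fold (95% interval 1.3 to 1.64). An antisense gene, Faddos, covers 6.12% of its exon bases and stood at 0.324 CPM or less on average in each group.

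Casp8 (ENSMUSG00000026029, chromosome 1), the protease that cleaves RIPK1 and RIPK3, had 62.9, 64.6 and 63.7 CPM after poly(I:C), 59.7, 59.4 and 59.9 after poly(dA:dT), and 57.6, 56.3 and 57.7 in mock. The groups did not overlap, but the poly(I:C) mean was 11.5% above the mock mean. It rose 1.11-fold after poly(I:C) (log2 fold change 0.16 ± 0.04 SE, edgeR adjusted p = 0.000348). After poly(dA:dT) the fold was 1.04 (95% interval 0.986 to 1.1) and not called (adjusted p = 0.209), while total counts as the scaling gave 0.14 on the log2 scale (adjusted p = 0.00314). The difference between the mimics was called (0.10 ± 0.04, adjusted p = 0.036), and the call was lost with DESeq2 (adjusted p = 0.0638), without a filter (0.218), without poly(dA:dT) replicate 1, 2 or 3 (adjusted p = 0.0791, 0.0898 and 0.0687) and without poly(I:C) replicate 2 or 3 (0.115 and 0.0648).

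Cflar (ENSMUSG00000026031), the gene of cFLIP, had 38.4, 38.1 and 41.1 CPM after poly(I:C), 26.5, 26.1 and 26.7 after poly(dA:dT), and 32.1, 34.1 and 32.9 in mock. Each group stood apart, with mock between the mimics. It rose 1.18-fold after poly(I:C) (log2 fold change 0.24 ± 0.05 SE, edgeR adjusted p = 2.36e-05) and fell to 0.801 of the mock level after poly(dA:dT) (-0.32 ± 0.06, adjusted p = 3.75e-07). In the direct comparison it was 1.48-fold higher after poly(I:C) than after poly(dA:dT) (adjusted p = 1.69e-17). Only 5.93% of all genes had a lower log2 fold change than Cflar after poly(dA:dT), and 62.6% had a lower value after poly(I:C). Cflar has 13 annotated transcripts, and the counts do not separate the long from the short form of cFLIP.

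Levels were compared between genes as RPKM, CPM divided by the length of the exons in kilobases. In the poly(I:C) libraries the order was Mlkl at 61.8 ± 2.2, Casp8 at 22 ± 0.28, Ripk3 at 6.88 ± 0.0989, Ripk1 at 6.29 ± 0.19, Fadd at 4.65 ± 0.362, Cflar at 3.09 ± 0.13 and Zbp1 at 1.92 ± 0.261 RPKM (SD, n = 3). After poly(dA:dT) it was Mlkl at 42.4 ± 2.58, Casp8 at 20.6 ± 0.0874, Ripk3 at 8.23 ± 0.361, Ripk1 at 5.59 ± 0.168, Fadd at 3.19 ± 0.224, Cflar at 2.09 ± 0.0229 and Zbp1 at 0.108 ± 0.0389. In mock the order was Mlkl at 37.9 ± 0.365, Casp8 at 19.8 ± 0.262, Ripk3 at 9.3 ± 0.48, Ripk1 at 5.43 ± 0.134, Cflar at 2.61 ± 0.0788, Fadd at 2.21 ± 0.211 and Zbp1 at 0.0139 ± 0.015. Fadd stood above Cflar after either mimic and below it in mock, and no neighbours in these orders had ranges that overlapped between libraries. The gap between Ripk3 and Ripk1 narrowed, and it depended on the length used: with the longest transcript the mean RPKM after poly(I:C) was 8.02 for Ripk3 and 8.11 for Ripk1. With that length Cflar stood above Fadd in every group, at 5.96 and 4.65 RPKM after poly(I:C), 4.03 and 3.19 after poly(dA:dT), and 5.03 and 2.21 in mock, so the change of places between them depends on the length used.

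**Figure D3:**
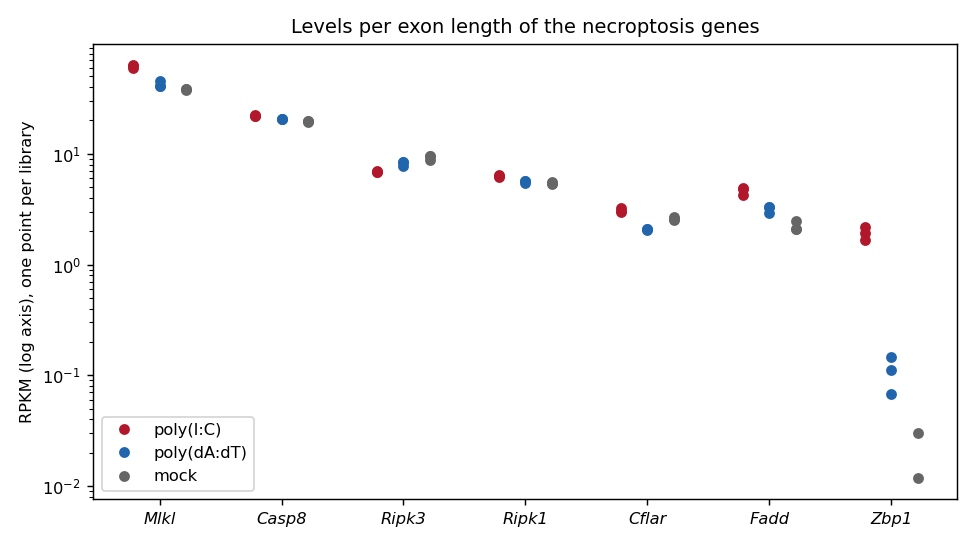
RPKM of each gene on a log axis, 1 point per library, by group. Mlkl and Casp8 are the most abundant per exon length in every group, and Zbp1 spans the range from 0.0118 RPKM in a mock library to 2.19 RPKM after poly(I:C); the mock library with 0 Zbp1 counts has no point.

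Ratios of members within a library do not depend on the scaling between libraries. The Mlkl to Ripk3 ratio of counts per exon base was 9.36, 9.12 and 8.5 after poly(I:C), 5.4, 4.84 and 5.22 after poly(dA:dT), and 3.99, 3.97 and 4.29 in mock. Mlkl thus stood at 8.99 ± 0.442 times Ripk3 after poly(I:C), 5.16 ± 0.286 after poly(dA:dT) and 4.08 ± 0.178 in mock (SD, n = 3). Ripk3 relative to Casp8 was 0.312 ± 0.0058, 0.399 ± 0.019 and 0.471 ± 0.0283, and Ripk3 relative to Ripk1 was 1.09 ± 0.0356, 1.47 ± 0.0262 and 1.71 ± 0.097, in the same order of groups. These 3 ratios did not overlap between any pair of groups. The Cflar to Casp8 ratio was 0.139, 0.135 and 0.147 after poly(I:C), 0.102, 0.1 and 0.102 after poly(dA:dT), and 0.127, 0.138 and 0.13 in mock. It was lower after poly(dA:dT) than in the other groups without overlap, while poly(I:C) and mock overlapped. Each non-overlapping comparison gave exact permutation p = 0.1, two-sided, the smallest that 3 against 3 allows (0.109 adjusted over the 12 comparisons), and the Cflar to Casp8 ratio of poly(I:C) against mock gave exact p = 0.2.

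**Figure D4:**
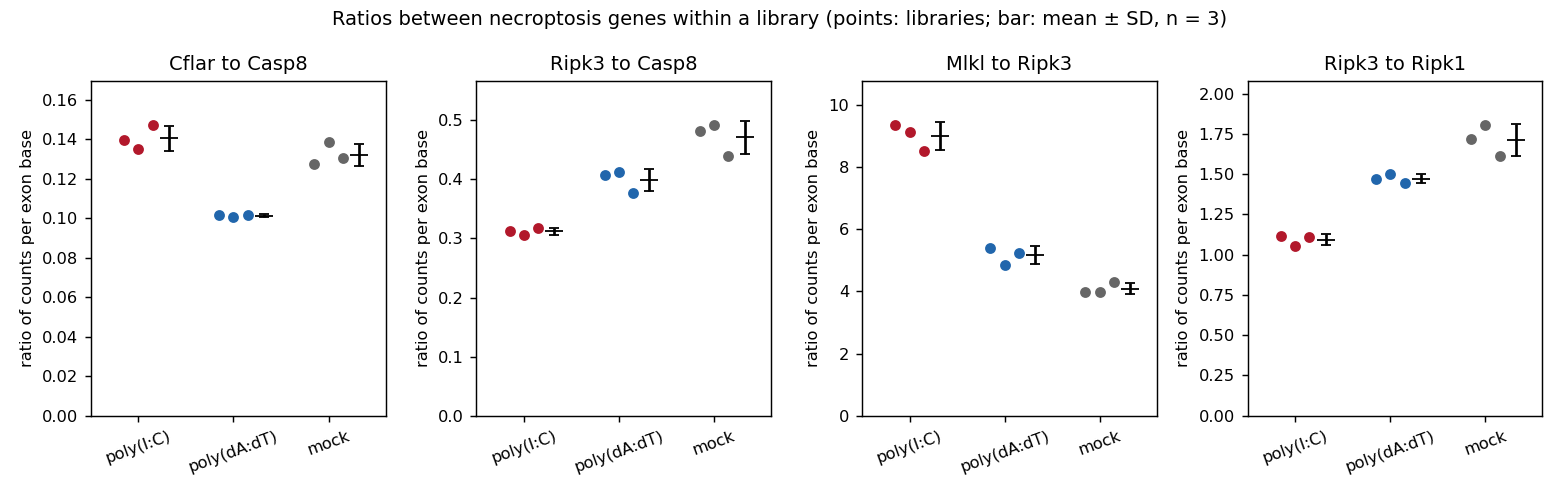
Ratios of counts per exon base within each library (y axes from 0), with mean ± SD (n = 3). Mlkl to Ripk3 is highest after poly(I:C) at 8.5 to 9.36, both Ripk3 ratios are lowest there, and Cflar to Casp8 is lowest after poly(dA:dT) at 0.1 to 0.102.

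Regulators around RIPK1 were followed in 38 listed genes, 37 of which passed the filter. After poly(I:C) 20 were called higher, 12 lower and 5 not called, where 39.8% of all genes tested were higher and 36.3% lower. After poly(dA:dT) 13 were higher, 11 lower and 13 not called, against 26.6% and 26.2% of all genes. Their median log2 fold change was 0.14 after poly(I:C) and -0.0026 after poly(dA:dT). Of the 3 upstream genes, Tlr3, the endosomal receptor for double-stranded RNA, rose 5.33-fold to 34.4 ± 2.35 CPM after poly(I:C) and 1.27-fold to 8.17 ± 0.818 after poly(dA:dT), against 6.46 ± 0.245 in mock. The poly(dA:dT) call was lost without poly(dA:dT) replicate 2 (log2 fold change 0.26, edgeR adjusted p = 0.0568). Adar, whose product edits double-stranded RNA and keeps Z-RNA from ZBP1, rose 3.27-fold after poly(I:C) and 1.46-fold after poly(dA:dT). Ticam1, the gene of TRIF, was not called after either mimic (log2 fold change -0.02 after poly(I:C) and -0.07 after poly(dA:dT)), and both signs turned positive with total counts as the scaling.

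Among 7 genes of death receptors, their ligands and adaptor, Fasl was too low to test. After poly(I:C) 3 were higher and 2 lower, where 39.8% and 36.3% of all genes tested were. After poly(dA:dT) 3 were higher and 2 lower, against 26.6% and 26.2% of all genes. The higher genes were not the same 3 for both mimics. Tnf, the ligand that starts RIPK1 signalling, had 1753 counts after poly(I:C), 49 after poly(dA:dT) and 1 in mock over the 3 libraries of a group. Tnfsf10, the TRAIL ligand, had 33, 1 and 4 counts in the same order. It passed the filter only through the poly(I:C) libraries, with 11 counts in each, so its call carries no weight of its own. Tnfrsf1a, the TNF receptor that recruits RIPK1, fell after both mimics, to 119 ± 5.99 CPM after poly(I:C) and 144 ± 1.03 after poly(dA:dT), against 162 ± 4.31 in mock. Tradd, its adaptor, stood at 23.1 ± 0.874 CPM after poly(I:C), 28.2 ± 0.778 after poly(dA:dT) and 30.8 ± 2.54 in mock. It fell after poly(I:C) (log2 fold change -0.42 ± 0.06 SE), and its poly(dA:dT) call (-0.14, adjusted p = 0.0438) was lost under 11 of 17 alternative settings, among them the fits without mock replicate 1 (adjusted p = 0.256) or 2 (0.169) and without poly(dA:dT) replicate 1 (0.0665), 2 (0.0516) or 3 (0.156), and the fit with a replicate block (0.0576).

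The list of genes that add, bind or remove the ubiquitin chains on RIPK1 held 11 genes, among them both ligases that favour survival and the deubiquitinase gene Cyld, known to favour the death complex, with its adaptor gene Spata2. Of the 11, 7 were called higher and 2 lower after poly(I:C), where 39.8% and 36.3% of all genes tested were. After poly(dA:dT) 5 were higher and 2 lower, against 26.6% and 26.2% of all genes. Tnfaip3, the gene of A20, rose 14.7-fold after poly(I:C), to 443 ± 2.78 CPM against 30.5 ± 3.06 in mock. The ligase genes Birc3 and Birc2 (cIAP2 and cIAP1) rose 4.72-fold and 3.02-fold, and Rnf31, the catalytic subunit of the linear ubiquitin complex, rose 3.08-fold. After poly(dA:dT) these 4 genes rose 3-fold (Tnfaip3), 1.69-fold (Birc3), 1.33-fold (Birc2) and 1.58-fold (Rnf31).

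The kinase list held 8 genes, of kinases that restrain RIPK1 and of their adaptor and regulatory subunits (Tab2 and Ikbkg). After poly(I:C) 4 were higher and 3 lower, where 39.8% and 36.3% of all genes tested were. After poly(dA:dT) 2 were higher and 3 lower, against 26.6% and 26.2% of all genes. Ikbke, the gene of the TBK1 relative IKKε, rose 4.37-fold after poly(I:C) and 1.82-fold after poly(dA:dT), and Ikbkb rose 1.43-fold and 1.14-fold. Mapkapk2, which phosphorylates RIPK1, fell after both mimics (log2 fold change -0.31 ± 0.03 SE after poly(I:C) and -0.14 ± 0.03 after poly(dA:dT)). Ikbkg, the gene of NEMO, the non-catalytic subunit, fell after poly(I:C) (-0.27 ± 0.04) and was not called after poly(dA:dT) (-0.08 ± 0.04). The poly(dA:dT) result depended on the processing. Ikbkg was called lower in edgeR with DESeq2 size factors (-0.09, adjusted p = 0.0206) and in the DESeq2 Wald test (-0.09, adjusted p = 0.0452). Over all alternatives its log2 fold change ran from -0.0946 to -0.00237.

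Of 9 genes downstream of caspase-8 or around MLKL and RIPK3, 4 rose and 5 fell after poly(I:C). The shares of all genes tested were 39.8% higher and 36.3% lower. After poly(dA:dT) 1 rose and 4 fell, against 26.6% and 26.2% of all genes. Bid, which carries the caspase-8 signal to mitochondria, stood at 130 ± 1.21 CPM after poly(I:C), 91.7 ± 1.77 after poly(dA:dT) and 92.2 ± 2.55 in mock. It rose 1.41-fold after poly(I:C) (edgeR adjusted p = 8.89e-32) and was not called after poly(dA:dT) (adjusted p = 0.849). Casp6 fell after both (log2 fold change -0.72 ± 0.06 SE and -0.33 ± 0.06), as did Hsp90aa1, a chaperone of RIPK3 and MLKL (-0.49 ± 0.02 and -0.23 ± 0.02).

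**Figure D5:**
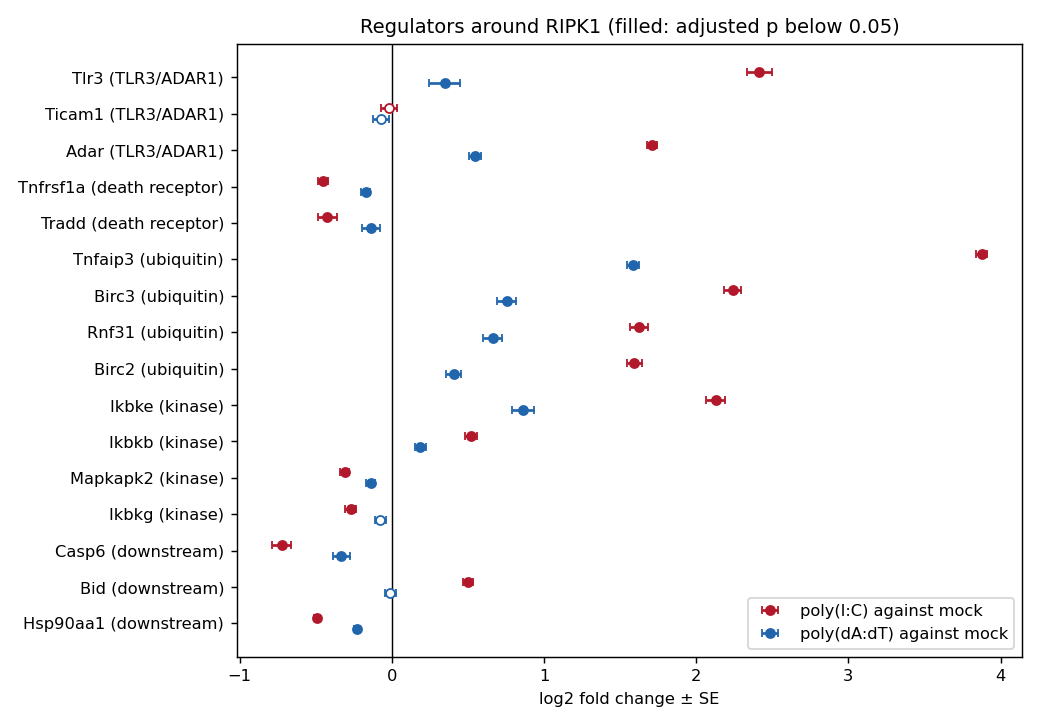
Log2 fold change ± SE (x axis) of 16 named regulators against mock, filled where the edgeR adjusted p was below 0.05. Tnfaip3 lies farthest to the right at 3.87 after poly(I:C), while Tnfrsf1a, Tradd, Mapkapk2, Casp6 and Hsp90aa1 lie below 0 and are filled for both mimics, and Ikbkg and Ticam1 lie below 0 with an open point for at least 1 of them; Tnf and Tnfsf10 are left out because of their mock counts of 1 and 4.

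Genes with the pattern most like that of a member were ranked by Pearson's r of log2(CPM + 1) over the 9 libraries, as a description. The 9 values fall into 3 treatment groups, so r mostly reflects the group means, and 903 of 11641 genes exceeded 0.95 for Zbp1. The added 1 exceeds the Zbp1 means of 0.381 CPM after poly(dA:dT) and 0.0489 in mock, so r gives little weight to their difference. Closest to Zbp1 were Tlr3 (r = 0.999), Dlc1 (0.999), Slc6a4 (0.998), Glis3 (0.998) and Sik3 (0.998). Of these, Slc6a4 was the nearest in level, at 11.8 CPM after poly(I:C), 0.65 after poly(dA:dT) and 0.0766 in mock. Sik3 changed far less than Zbp1, at 96, 63.9 and 58.9 CPM in the same order. For Mlkl they were Ifi203, Gpr119 and Nampt, with r from 0.993 to 0.994, and for Fadd Stk11ip, Ptk2b and Slc7a6os. For Casp8 they were Nphp4, Trim24 and Katna1, for Ripk1 Trib2, Cmtr1 and Id4, and for Ripk3 Maf1, Lmna and Glmp. The Cflar pattern was shared least: 27 genes exceeded 0.95, led by Igfbp3 (r = 0.991), Efhd2 and Fscn1. Igfbp3 stood at 52.4 CPM after poly(I:C), 30.8 after poly(dA:dT) and 41.2 in mock, with mock between the mimics as for Cflar.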

How the data were processed

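RNA-seq libraries were made from total RNA with a TruSeq RNA kit (RNeasy extraction), per the labels' protocols. The submitters' processing notes name TopHat2 2.1.0, HTSeq, DESeq2 and the build GRCm38.p4, and the authors deposited raw read counts per Ensembl gene. No source used here gives the annotation release, strand setting or handling of multi-mapping reads. GENCODE M21 matched 46091 of 46603 identifiers, and the other 512 held 0.0588% of counts. The 9 libraries entered 1 fit in edgeR 4.0.16 (R 4.3.3), with TMM scaling, filterByExpr by group, a prior count of 0.125 and robust, two-sided quasi-likelihood tests. Benjamini-Hochberg adjustment ran over all 14176 genes tested, and 0.05 was the threshold. Each SE was obtained from the log2 fold change and the square root of its F statistic. CPM used TMM-scaled library sizes, and RPKM the union of annotated exons. Intervals of fitted fold changes were obtained from the SE, so they include variation between libraries. The exact binomial intervals of the Zbp1 count ratios and the floors (3 counts) cover counting error only. The tests were tested on simulated data.

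Replicates are not stated to be separate cultures, so p-values measure only how these samples vary, and that variation may be technical. No replicate pair agreed within sampling noise (chi-square per degree of freedom 1.64 to 2.1). The labels name no batch. The members and lists were chosen with earlier results of these data known. Named are the members, Actb, Ifnb1 and Irf7, the genes most like each member (5 for Zbp1 and 3 for the others, mean of at least 1 CPM), and regulators: short lists whole, and from longer lists the 4 called genes with the largest change after poly(I:C), of which 1 is not reported here. Genes overlapping a member and cell type markers were named for the checks. Alternatives were other scalings, filters, DESeq2 1.42.0, a fit of 2 groups, a replicate block and leaving out each library.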

Additional observations from a re-analysis of the deposited data

How the results depend on the processing

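None of the 7 members changed direction in any of the 3 comparisons under the alternatives run (other scalings, DESeq2, other filters, only the 2 groups compared, the replicate block, and leaving out each library). Of 356 member values so recomputed, 343 kept their call, 11 lost it (Ripk3 for poly(dA:dT) against mock, and Casp8 for poly(I:C) against poly(dA:dT)) and 2 gained it (Ripk1 and Casp8 for poly(dA:dT) against mock). With total counts as the scaling, 5 members were called higher and 1 lower after poly(dA:dT), against 3 and 2; this scaling raised the median log2 fold change of all genes by 0.11 for poly(I:C) against mock and by 0.07 for poly(dA:dT) against mock. Leaving out a library, 1 to 2 members were called lower after poly(dA:dT). The number of genes called in either direction over the whole table stayed within 1.5 times of the main count in the alternatives run, and the number called lower after poly(dA:dT) was 2389 with total counts, against 3721. Ticam1 changed sign for poly(dA:dT) against mock with total counts (0.000238) and for poly(I:C) against mock with upper-quartile factors (0.0167), total counts (0.0981), a minimum of 50 counts in 3 libraries (0.0275) and without mock replicate 2 (0.014; -0.0601 to 0.014 on leaving out a library). Bid changed sign for poly(dA:dT) against mock with upper-quartile factors (0.0124), total counts (0.0652), the minimum of 50 counts (0.00233), and on leaving out mock replicate 2 (0.0124) or, among the poly(dA:dT) libraries, replicate 2 (0.00657; -0.0253 to 0.0124 on leaving out a library), and was called in none of them. With the longest transcript as length, the Cflar to Casp8 ratio was 0.242 after poly(I:C), 0.174 after poly(dA:dT) and 0.227 in mock, Ripk3 to Ripk1 was 0.99, 1.33 and 1.55 in the same order, and Ripk3 to Casp8 was 0.326 after poly(I:C).

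The titles give the groups the same replicate numbers, but same-numbered libraries did not deviate together (r -0.116 to 0.0674 over 9 pairs, 4 of 9 libraries correlating best with their own number). No pairing by number was seen, but low correlation cannot exclude a culture or day that same-numbered libraries share. With the replicate block 10724 genes were called for poly(I:C) against mock, 7384 for poly(dA:dT) against mock and 8905 between the mimics, and no member's call changed. With 3 Zbp1 counts in mock, depth limits the precision of the Zbp1 ratios.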
